A study of Rattus norvegicus with 15 samples.

Results

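The genes of oxidative phosphorylation were followed in isolated rat islets 10 weeks after 90% of the pancreas had been removed. They were taken from the count table by gene symbol: the 13 mitochondrially encoded subunits, and 95 nuclear symbols that begin with Nduf, Uqcr, Cox4 to Cox8 or Atp5 or name one of the 4 Sdh subunits, with pseudogenes left out. The 108 genes are members of a table of 28914 genes. The nuclear members comprise 37 for complex I, 8 for complex I assembly, 4 for complex II, 8 for complex III, 20 for complex IV, 16 for complex V (ATP synthase) and 2 further Atp5 symbols, Atp5if1 and Atp5s.

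Polyadenylated RNA from the islets of 15 Lewis rats had been sequenced. Partial pancreatectomy (Px) had been done on 10 rats, and 5 rats had a sham operation. The labels describe all rats as 4-5 weeks old, with no word on when that age applied, and give each rat's average blood glucose with no unit. Glucose was 416 to 464 in 3 Px rats (higher-glucose Px), 104 to 211 in 7 Px rats (lower-glucose Px) and 88 to 96 in the Sham rats. Nothing in the labels beyond their numbering says that each library is a separate animal, so p-values measure the spread between these samples.

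The respiratory chain passes electrons from NADH (complex I) and succinate (complex II) to coenzyme Q, through complex III to cytochrome c, and on to oxygen at complex IV, and the proton gradient that it builds drives ATP synthase. Subunits of complexes I, III, IV and V come from both genomes, while every subunit of complex II is nuclear. Mitochondrial DNA is transcribed by its own machinery into long precursors, so its messages and the nuclear ones are made in separate compartments. In beta cells, ATP made this way closes the potassium channel that couples glucose to insulin release.

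Promoters were examined for the binding motifs of NRF1 and of the ETS factor GABP, both known as regulators of nuclear respiratory genes. RefSeq promoter windows (assembly GRCr8, 250 bases before to 50 after the start) were matched for 84 of the 95 nuclear members. The NRF1 motif (GCGC, then any base, then TGCGC), on either strand, occurred in 16 of the 84 (19%), and in 4.71% of all 27457 windows. The ETS motif CCGGAAGT occurred in 8 (9.52%) and in 4.01% of all windows, and no member's window held both. On the log2 scale, the median change of Px over Sham was 0.387 in the 16 members with the NRF1 motif and 0.459 in the 63 tested members without it, and 0.441 in the 8 with the ETS motif against 0.456 in the other 71. A match is a match of letters only.

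The 250 bases before the start are shown for 4 members described in detail here, with motif matches in capitals. Atp5me (a membrane subunit of ATP synthase, chr14:1464610-1464859, plus strand), Sdha (the flavoprotein of complex II, chr1:30764303-30764552, plus strand) and Uqcrh (the hinge protein of complex III, chr5:134790883-134791132, minus strand) were higher in Px islets, and Ndufs1 (the largest iron-sulfur subunit of complex I, chr9:72073606-72073855, minus strand) was lower. Atp5me holds the NRF1 motif, Sdha holds it on the opposite strand, and Uqcrh and Ndufs1 the ETS motif on the opposite strand.
Atp5me: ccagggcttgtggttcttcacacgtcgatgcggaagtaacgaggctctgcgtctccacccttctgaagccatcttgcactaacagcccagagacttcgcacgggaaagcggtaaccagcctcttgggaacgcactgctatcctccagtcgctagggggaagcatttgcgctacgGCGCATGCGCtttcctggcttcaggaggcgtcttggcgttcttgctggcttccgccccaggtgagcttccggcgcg
Sdha: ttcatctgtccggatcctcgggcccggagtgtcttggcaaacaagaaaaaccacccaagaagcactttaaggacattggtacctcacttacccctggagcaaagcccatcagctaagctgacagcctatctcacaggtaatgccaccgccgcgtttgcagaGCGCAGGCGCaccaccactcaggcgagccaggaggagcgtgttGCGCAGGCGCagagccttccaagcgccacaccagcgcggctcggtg
Uqcrh: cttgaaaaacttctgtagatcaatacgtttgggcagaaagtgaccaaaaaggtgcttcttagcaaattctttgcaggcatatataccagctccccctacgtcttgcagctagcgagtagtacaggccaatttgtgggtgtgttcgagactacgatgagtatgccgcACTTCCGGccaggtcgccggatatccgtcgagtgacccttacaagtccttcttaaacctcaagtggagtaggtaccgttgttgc
Ndufs1: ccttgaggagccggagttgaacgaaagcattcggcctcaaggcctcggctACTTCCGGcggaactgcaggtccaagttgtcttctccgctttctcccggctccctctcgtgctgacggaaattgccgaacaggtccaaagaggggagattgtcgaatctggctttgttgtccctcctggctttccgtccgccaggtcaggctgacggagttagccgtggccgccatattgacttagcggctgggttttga
The same ETS letters stand before Uqcrh, which rose, and Ndufs1, which fell.

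Library totals were 22.3 to 33.4 M counts in higher-glucose Px, 19.1 to 31.6 M in lower-glucose Px and 12.2 to 18.4 M in Sham. The islets differed in cell content: acinar markers took 22.7 to 53.0% of counts in Px and 1.15 to 16.3% in Sham. Summed beta cell markers lay between 38729 and 80222 normalised read counts (CPM, on library sizes scaled by TMM) in Px and between 87795 and 190160 in Sham. The 16 macrophage markers summed to 768 to 4075 CPM in Px against 31.998 to 72.463 in Sham, and the 17 fibroblast markers to 2529 to 10737 CPM in Px against 429 to 922 in Sham, with none of these markers at 0. Because these are bulk samples, fewer cells of a type and less RNA per cell cannot be told apart in any result here.

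Mitochondrially encoded transcripts took a smaller part of the RNA in Px islets. The 13 genes made up 1.90% ± 0.479 of counts in Px (SD, n = 10), with a lowest, median and highest library of 1.22%, 1.99% and 2.50%, against 4.17% ± 0.490 in Sham (n = 5), where the 5 libraries held 3.70%, 3.70%, 4.16%, 4.52% and 4.80%. Every Px library lay below every Sham library. The 95 nuclear members made up 0.449% ± 0.103 of counts in Px (0.326% to 0.621%) and 0.546% ± 0.0317 in Sham (0.511% to 0.594%), and there the groups overlapped. For single libraries the 95% Wilson intervals are narrow, as in higher-glucose Px replicate 13 (1.211% to 1.219%) and Sham replicate 24 (4.785% to 4.809%), and cover counting error only.

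Acinar messages filled a large part of the Px libraries. With acinar marker genes left out of the total, the mitochondrially encoded share was 2.94% ± 0.437 in Px and 4.43% ± 0.451 in Sham, still without overlap (2.16% to 3.59% in Px, 3.80% to 5.05% in Sham). The nuclear share was then higher in Px, at 0.695% ± 0.0694, than in Sham, at 0.581% ± 0.0552, with overlapping ranges. Leaving out the acinar markers thus changed the direction of the nuclear share but not that of the mitochondrially encoded share. Relative to endocrine genes, the mitochondrially encoded median was not lower in Px (log2 fold change 0.12), as described below.

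The ratio of the summed counts within a library needs no scaling. Mitochondrially encoded over nuclear counts gave 4.23 ± 0.469 in Px (3.53 to 4.91) and 7.69 ± 1.18 in Sham (6.22 to 8.84), with no overlap. It was 4.32 ± 0.529 in higher-glucose Px (n = 3) and 4.19 ± 0.481 in lower-glucose Px (n = 7), and these ranges overlapped. Lower-glucose Px replicate 8, whose acinar share of 22.69% (Wilson interval 22.68% to 22.71%) was the lowest of the Px libraries, had a ratio of 3.64. Lower-glucose Px replicate 16, with the highest Px acinar share of 52.99% (52.97% to 53.01%), had 4.35. The lowest Px ratio, 3.53, was that of lower-glucose Px replicate 14, with an acinar share of 47.29% (47.27% to 47.30%). Higher-glucose Px replicate 13, at 43.63% (43.61% to 43.64%), had 3.73. A relation of the ratio to the acinar share was not tested. Sham replicate 25, with the highest Sham acinar share of 16.28% (16.26% to 16.30%), had 6.72, and Sham replicate 23, with the lowest, 1.15% (1.147% to 1.159%), had 8.84. The lowest Sham ratio, 6.22, was that of Sham replicate 26, whose acinar share was 2.71% (2.70% to 2.72%).

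**Figure D1:**
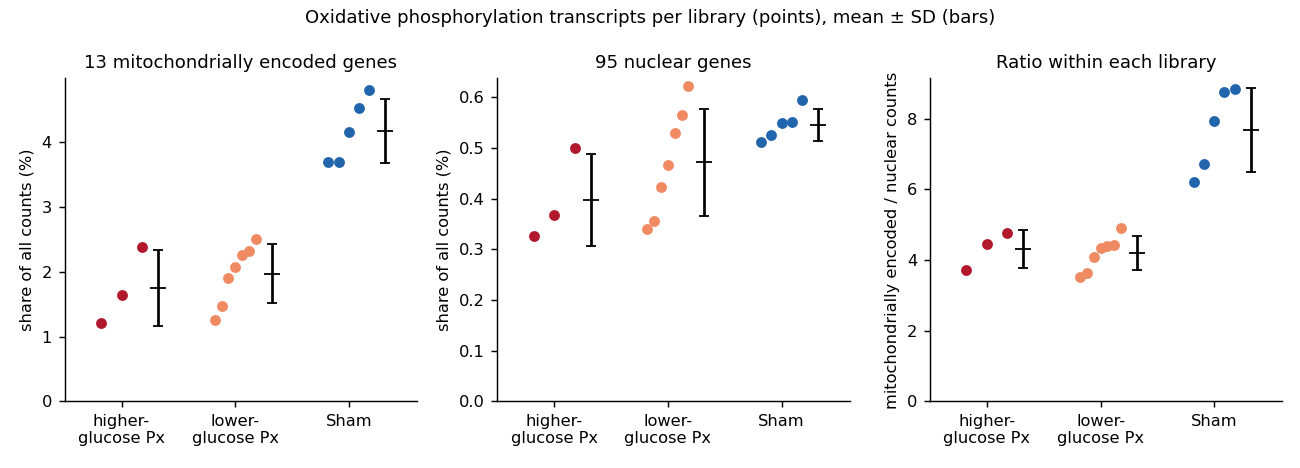
Share of all counts from the 13 mitochondrially encoded genes (left, %), from the 95 nuclear genes (middle, %) and the ratio of both within each library (right), for higher-glucose Px, lower-glucose Px and Sham. Points are libraries and bars are mean ± SD; Px libraries sit below Sham for the mitochondrially encoded share (at most 2.50% against at least 3.70%) and the ratio (at most 4.91 against at least 6.22), while nuclear shares overlap.

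Gene by gene, all 10 Px libraries were set against the 5 Sham libraries to ask how each member differed after most of the pancreas was removed. Of 13 mitochondrially encoded genes, 0 were called higher and 8 lower at TMM scaling (edgeR quasi-likelihood test with Benjamini-Hochberg adjusted p below 0.05), with a median log2 fold change of −0.44. All 9 of the 13 with an unadjusted p below 0.05 were lower, and DESeq2 called 0 higher and 11 lower and limma voom 0 higher and 9 lower. Of 89 nuclear members tested, 61 were called higher and 2 lower, with a median of 0.47. Among all 15199 genes tested, 64.7% were called, 34.5% higher and 30.2% lower, with a median of 0.02. The nuclear share called higher, 68.5%, thus stood well above that background, and the share called in either direction, 70.8%, near it. That background is not matched for gene length, and the shares by length are given below.

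These directions hold relative to the other genes and not in absolute terms, since the scaling moved them. With library totals alone, where the median of all genes was −0.62, 13 mitochondrially encoded genes were lower, and 2 nuclear members were higher and 21 lower. With scaling to 8 endocrine granule genes, where the median of all genes was 0.61, 1 mitochondrially encoded gene was higher and 0 lower (1 lower at an unadjusted p below 0.05), and 84 nuclear members were higher and 0 lower (0 lower also at an unadjusted p below 0.05). Set against the median of all genes, the mitochondrially encoded median was −0.46 with TMM, −0.49 with library totals and −0.49 with endocrine scaling, and the nuclear median 0.44, 0.42 and 0.46. The distance between both medians was 0.90 with TMM, with library totals and with upper-quartile scaling, 0.95 with endocrine scaling, and 0.81 to 1.03 when each library was left out in turn. A scaling factor moves all genes of a library together, so values set against other genes could change little between scalings.

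Cell content moved with the groups as well. Once the acinar score was entered as covariate, the distance was 0.96, with 4 mitochondrially encoded genes lower and 4 nuclear members higher and 4 lower. With the macrophage score, which did not overlap between Px and Sham, it was 0.13, and edgeR called 0 of all 15199 genes (998 higher and 815 lower at an unadjusted p below 0.05). The acinar share of counts did not overlap either (22.7 to 53.0% in Px, 1.15 to 16.3% in Sham), nor did the summed fibroblast markers. The surgery and the macrophage, acinar or fibroblast content cannot be told apart in these libraries, with or without a covariate.

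**Figure D2:**
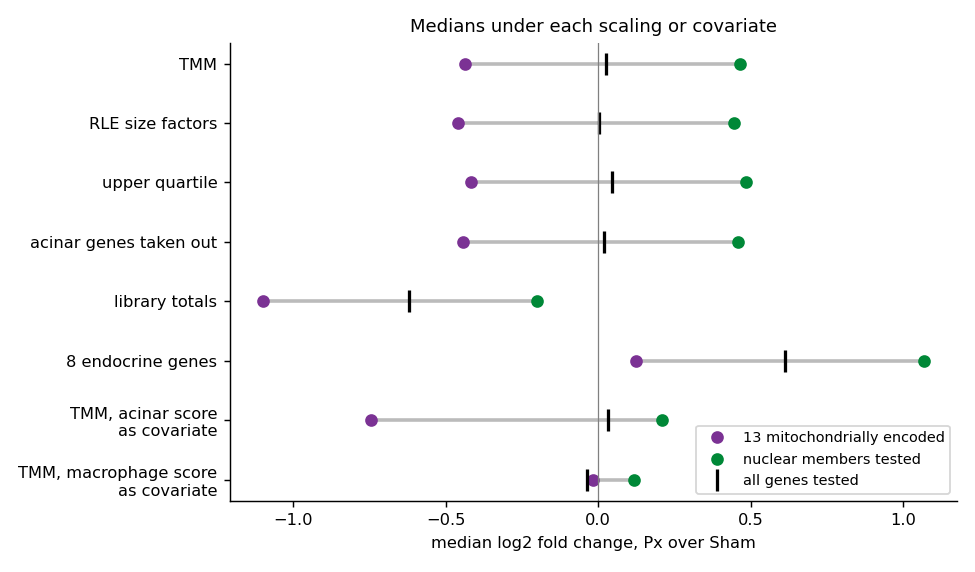
Median log2 fold change of Px over Sham (horizontal axis) for the 13 mitochondrially encoded genes, the nuclear members tested and all genes tested (bar), under 6 scalings and with 2 covariates. The pair of medians shifts with the scaling, from −1.10 and −0.20 with library totals to 0.12 and 1.07 with endocrine scaling. Their distance is 0.90 to 0.95 across scalings, which move all genes of a library together and so can change it little. With the macrophage score as covariate the distance is 0.13.

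The largest fall among all members was in a mitochondrially encoded complex I gene. Mt-nd5 (chrMT:11736-13565, a proton-pumping subunit) had 1369, 1405 and 1528 CPM in higher-glucose Px, 1235, 1379 and 1917 (lowest, median, highest) in lower-glucose Px, and 2260, 2531, 2651, 2704 and 2831 in Sham. No Px library came up to the Sham range, and lower-glucose Px replicate 11 lay closest to it. The log2 fold change was −0.86 ± 0.12 (SE, edgeR quasi-likelihood test, Benjamini-Hochberg adjusted p = 1.03e-05). Mt-nd3, Mt-nd2, Mt-nd1 and Mt-nd4, further membrane subunits of complex I, fell by 0.73, 0.62, 0.61 and 0.44 on the log2 scale, though Mt-nd4 stood at 0.12 with endocrine scaling. Mt-nd4l, at −0.35, and Mt-nd6, at −0.18, did not pass. Mt-nd6 is the subunit encoded on the other strand. In these libraries of polyadenylated RNA it had the lowest level, at 9.65 ± 4.67 CPM in Px and 10.9 ± 3.70 in Sham. It overlaps Mt-nd5, as Mt-nd4l overlaps Mt-nd4 and Mt-atp8 overlaps Mt-atp6, so the reads of such pairs are uncertain.

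Mt-cyb (chrMT:14136-15278), cytochrome b, is the only complex III subunit of mitochondrial DNA. It had 1782, 2050 and 2356 CPM in higher-glucose Px, 1580, 1749 and 2241 (lowest, median, highest) in lower-glucose Px, and 2857, 2933, 2982, 3202 and 3216 in Sham. No Px library reached a Sham library, and the log2 fold change was −0.70 ± 0.12 (edgeR, Benjamini-Hochberg adjusted p = 0.000122).

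The 3 complex IV subunits of mitochondrial DNA were below 0 at TMM scaling and above it with endocrine scaling. Mt-co1 (chrMT:5323-6867), which carries the oxygen-reducing center, averaged 4196 ± 589 CPM in Px and 5993 ± 471 in Sham, a log2 fold change of −0.51 ± 0.15, without overlap. Mt-co3 gave −0.42 ± 0.15 and passed (edgeR, Benjamini-Hochberg adjusted p = 0.0227), with overlapping groups. Mt-co2, which takes electrons from cytochrome c, had 4380, 5627 and 6468 CPM in higher-glucose Px, 3978, 4677 and 5327 (lowest, median, highest) in lower-glucose Px, and 5018, 5421, 5662, 5970 and 6619 in Sham. These ranges overlapped, and its −0.24 ± 0.16 did not pass. Neither ATP synthase gene of mitochondrial DNA passed, with Mt-atp6 at −0.33 ± 0.16 and Mt-atp8 at −0.13 ± 0.19 (0.24 and 0.44 with endocrine scaling). Of the 13, 4 genes (Mt-nd5, Mt-cyb, Mt-nd1 and Mt-co1) lay lower in every Px than in every Sham library, where 16.4% of all genes did so.

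**Figure D3:**
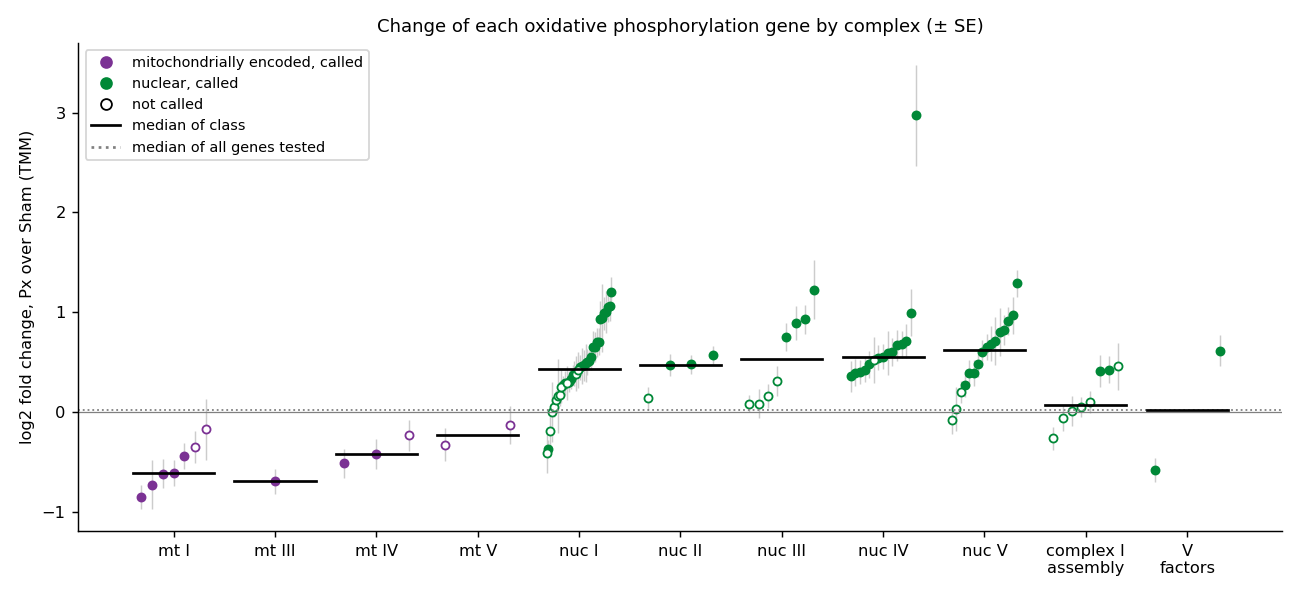
Log2 fold change of Px over Sham at TMM scaling (vertical axis, ± SE) for each tested member, by complex, mitochondrially encoded (mt) and nuclear (nuc). Filled points were called, lines are class medians and the dotted line is the median of all genes; mitochondrially encoded genes lie between −0.86 and −0.13 and nuclear medians of complexes I to V between 0.43 and 0.62, but library totals alone place both groups below 0 and endocrine scaling both medians above it.

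Nuclear complex I members rose for the most part, 24 of 36 tested, with 1 lower and a median of 0.43. Ndufb3 (chr9:65478496-65488702), an accessory subunit of the membrane arm, had 11.3, 15.04 and 16.7 CPM in higher-glucose Px, 9.36, 11.8 and 15.4 (lowest, median, highest) in lower-glucose Px, and 4.92, 4.99, 5.16, 5.69 and 7.28 in Sham. The groups did not overlap, and its log2 fold change was 1.20 ± 0.15 (edgeR, Benjamini-Hochberg adjusted p = 2.79e-06). Ndufs6 (1.06 ± 0.15), an accessory subunit that binds zinc, and Ndufa3 (1.05 ± 0.15), a small accessory subunit, also lay higher in every Px than in every Sham library. The Ndufs6 row is uncertain: the count table places it at chr2:26471173-26471584, whereas RefSeq has the gene on chromosome 1.

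Ndufs1 (chr9:69919867-69953182) went the other way. It had 80.0, 81.1 and 84.1 CPM in higher-glucose Px, 63.0, 67.4 and 81.2 (lowest, median, highest) in lower-glucose Px, and 81.8, 84.5, 96.6, 107 and 108 in Sham. In Px, 9 of 10 libraries fell short of the Sham range, and the log2 fold change was −0.37 ± 0.09 (edgeR, Benjamini-Hochberg adjusted p = 0.00187), but 0.22 under endocrine scaling and 0.019 once macrophage score was a term of the fit. Among the 7 core subunits that hold the flavin and iron-sulfur centers, 4 rose and 1 fell (median 0.29), and among the 29 other subunits tested 20 rose and 0 fell (median 0.47; 1 was lower at an unadjusted p below 0.05), a split made after the values were seen. Of 8 assembly factors 2 rose, Ndufaf7 (0.42) and Ndufaf2 (0.41), and the median was 0.07.

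Complex II, the nuclear complex that is also an enzyme of the citric acid cycle, had 3 of its 4 subunits higher at TMM scaling, while library totals placed all 4 below 0. Sdha had 129, 147 and 176 CPM in higher-glucose Px, 125, 136 and 159 (lowest, median, highest) in lower-glucose Px, and 85.3, 94.7, 96.0, 98.7 and 107 in Sham. Every Px library exceeded every Sham library, at a log2 fold change of 0.57 ± 0.09 (edgeR, Benjamini-Hochberg adjusted p = 2.76e-05). The iron-sulfur subunit Sdhb (0.48 ± 0.10) and the membrane anchor Sdhd (0.47 ± 0.11) rose as well, and the other anchor, Sdhc, stood at 0.13 ± 0.11.

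Of 8 nuclear complex III members 4 rose and 0 fell (0 lower also at an unadjusted p below 0.05), with a median of 0.53 at TMM scaling. Uqcrh (chr5:134919044-134927235) had 69.4, 81.3 and 98.4 CPM in higher-glucose Px, 55.2, 59.8 and 81.4 (lowest, median, highest) in lower-glucose Px, and 28.9, 31.7, 39.1, 39.4 and 43.2 in Sham. The groups did not overlap, and its log2 fold change was 0.93 ± 0.14 (edgeR, Benjamini-Hochberg adjusted p = 2.97e-05). Uqcrq (1.22 ± 0.29), Uqcr10 (0.89 ± 0.17) and Uqcrb (0.75 ± 0.14), all small subunits, rose too, while Uqcr11, another small subunit, stood at 0.31 and did not pass. The core proteins Uqcrc1 (0.16 ± 0.12) and Uqcrc2 (0.08 ± 0.08) and the Rieske iron-sulfur protein Uqcrfs1 (0.08 ± 0.15) did not pass either.

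Of 15 nuclear complex IV members tested, 14 rose and 0 fell (median 0.55), and the remaining one, Cox7b, had an unadjusted p below 0.05 and a value of 0.52. Cox4i1 (chr19:54245950-54252225), the common form of the regulatory subunit IV, had 179, 221 and 233 CPM in higher-glucose Px, 155, 177 and 238 (lowest, median, highest) in lower-glucose Px, and 96.0, 112, 113, 137 and 158 in Sham. All but lower-glucose Px replicate 11 exceeded the highest Sham library, at 0.68 ± 0.13 (edgeR, Benjamini-Hochberg adjusted p = 0.000297). Its hypoxia-responsive isoform Cox4i2 rose by 0.59 ± 0.22, and the ratio of Cox4i2 to Cox4i1 counts overlapped between Px (0.0350 to 0.0859) and Sham (0.0485 to 0.0896). Ndufa4, placed with complex IV here, rose by 0.39 ± 0.14, and its hypoxia-induced relative Ndufa4l2 by 0.99 ± 0.24 at a low level of 3.22 ± 0.807 CPM in Px and 1.61 ± 0.487 in Sham.

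The tissue-restricted isoforms of complex IV were barely present. Cox6b2, the testis form, had 5 to 40 counts per library in Px and 0 to 5 in Sham, so its fitted log2 fold change of 2.97 ± 0.50 rests on few reads. Cox6a2, a heart and muscle form, had 3 to 17 counts in Px and 1 or 2 in Sham and was not tested in this comparison, and Cox7a1 had at most 5 counts. Cox8b had 0 counts in every Px library and at most 4 in Sham, Cox7b2 at most 1, and Cox8c 0 in all 15 libraries.

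Nuclear ATP synthase members had the highest median of the complexes, 0.62, with 13 of 16 called higher and 0 lower (0 lower also at an unadjusted p below 0.05). Atp5mf (chr12:11191812-11198369), a membrane subunit, had 33.6, 51.6 and 52.9 CPM in higher-glucose Px, 30.6, 39.5 and 43.5 (lowest, median, highest) in lower-glucose Px, and 14.3, 15.02, 15.97, 18.6 and 20.1 in Sham. Each Px library was above each Sham library, and its log2 fold change of 1.29 ± 0.13 had the smallest p of all members (edgeR, Benjamini-Hochberg adjusted p = 5.10e-07). Atp5me rose by 0.91 ± 0.14, without overlap. The catalytic subunit Atp5f1b averaged 603 ± 75.2 CPM in Px and 460 ± 90.2 in Sham and rose by 0.39 ± 0.13, whereas its partner in the catalytic ring, Atp5f1a, stood at −0.08 ± 0.13 and did not pass.

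The copies of the c-ring subunit, Atp5mc1 (0.48), Atp5mc3 (0.39) and Atp5mc2 (0.20), were all positive at TMM scaling and all negative with library totals, and Atp5mc2 did not pass. Atp5if1, which inhibits the enzyme when it runs backwards, rose by 0.61 ± 0.15. Atp5s, a factor of the coupling machinery, had 3.79, 4.01 and 6.28 CPM in higher-glucose Px, 4.70, 4.98 and 6.11 (lowest, median, highest) in lower-glucose Px, and 6.88, 6.98, 7.03, 7.91 and 8.44 in Sham. It was the one nuclear member with every Px library below every Sham library (−0.58 ± 0.12, edgeR, Benjamini-Hochberg adjusted p = 0.000538), and 18 of the 89 tested nuclear members had every Px library above, a share near the 20.8% of all genes that did so. Cox6a2, not tested in this comparison, also had every Px library above, on the few counts given above.

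**Figure D4:**
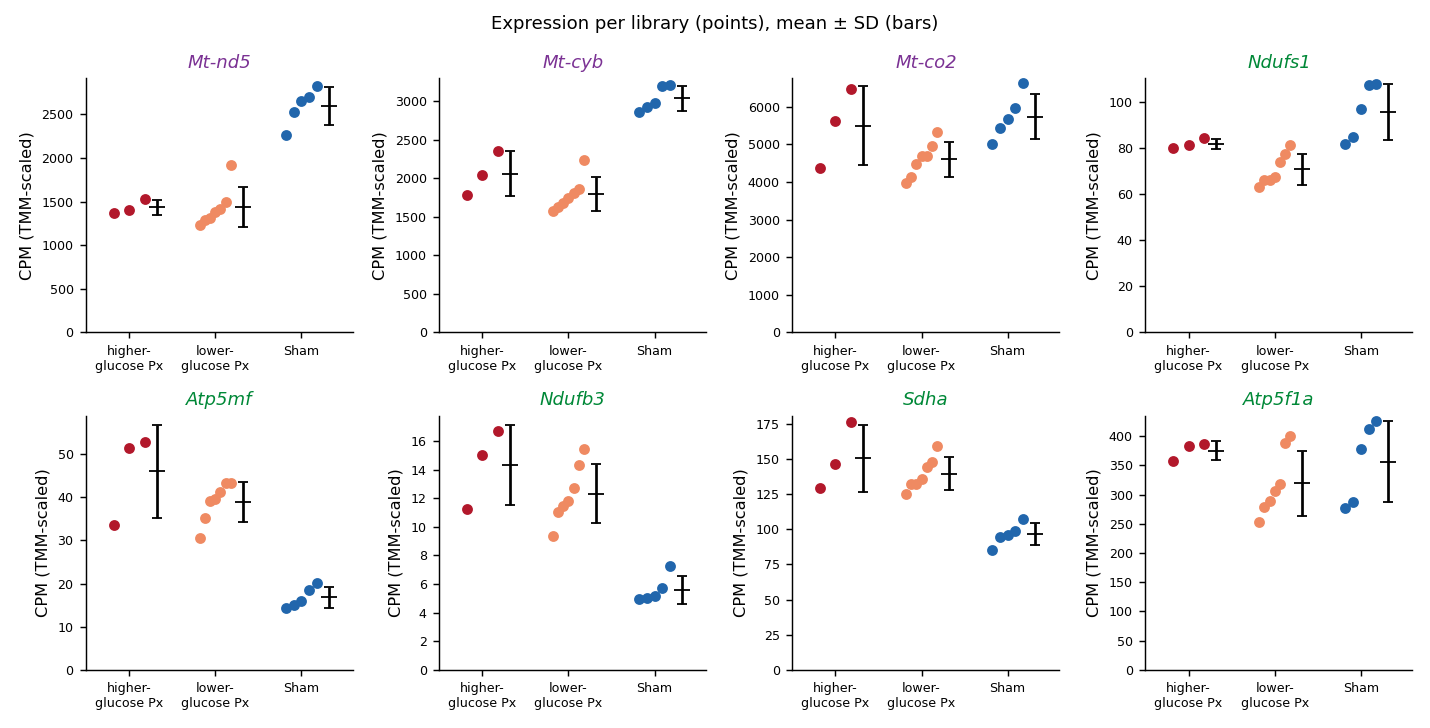
Expression (CPM on TMM-scaled library sizes, vertical axes from 0) of 3 mitochondrially encoded and 5 nuclear members in each library of higher-glucose Px, lower-glucose Px and Sham, with mean ± SD. Px and Sham do not overlap for Mt-nd5, Mt-cyb, Atp5mf, Ndufb3 and Sdha; they overlap for Mt-co2, Ndufs1 and Atp5f1a.

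Proportions between members differed between the groups, and these ratios of counts within a library need no scaling. Mt-nd5 over Mt-co2 was 0.236 to 0.388 in Px and 0.399 to 0.528 in Sham. Mt-cyb over Mt-co2 was 0.317 to 0.468 in Px and 0.486 to 0.594 in Sham. Atp5mf over Atp5f1a was 0.0870 to 0.164 in Px and 0.0335 to 0.0672 in Sham. None of these 3 ratios overlapped between the groups, nor did Ndufb3 over Ndufs1 (0.127 to 0.245 in Px, 0.0463 to 0.0862 in Sham) or Uqcrh over Uqcrc2 (0.848 to 1.28 in Px, 0.421 to 0.697 in Sham). The pairs were chosen after their values were seen, so these are descriptions.

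Fold changes were more positive in members with a shorter exon length per gene, in both genomes. Across the 89 nuclear members the Spearman correlation of log2 fold change with exon length was −0.47, across the 13 mitochondrially encoded genes −0.62, across 75 mitochondrial ribosomal protein genes −0.34 and across all genes tested −0.22. These are descriptions across genes that share the same libraries. Among genes under 700 bases the median was 0.58 in 38 nuclear members and 0.60 in all 1147 genes. From 700 bases to under 1200 it was 0.48 in 26 members and 0.34 in all genes, and from 1200 bases 0.27 in 25 members and −0.05 in all genes. The medians of nuclear members and of all genes were thus close in the shortest class and apart in the longer ones. From the shortest class to the longest, 73.7%, 73.1% and 56% of nuclear members were called higher. Among all genes of the same classes it was 48.5%, 46.4% and 31.8%.

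**Figure D5:**
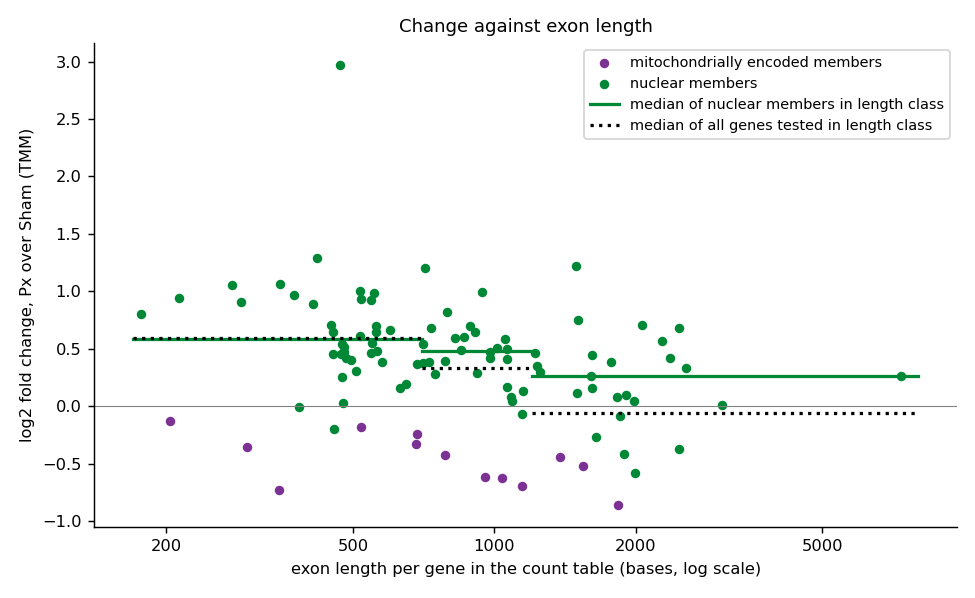
Log2 fold change of Px over Sham at TMM scaling (vertical axis) against exon length in bases (log scale) for each tested member. Lines give the medians of nuclear members and of all genes in 3 length classes; they are 0.58 and 0.60 under 700 bases and 0.27 and −0.05 from 1200 bases, and library totals alone put the median of all genes at −0.62 and endocrine scaling puts it at 0.61.

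Levels between genes were compared per length, as length-normalised shares of the library (TPM). Mt-co2 was the highest member, at 7258 ± 2182.2 TPM in Px and 15084 ± 3185 in Sham. Among nuclear members Atp5f1b had the highest mean in Px (343 ± 87.8 TPM, against 456 ± 56.5 in Sham), and Atp5mg, a membrane subunit of ATP synthase, the highest in Sham (290.4 ± 82.8 TPM in Px, 525 ± 82.8 in Sham). Mt-nd6 was the lowest of the mitochondrial genome in this polyadenylated RNA, at 18.6 ± 8.06 TPM in Px and 36.5 ± 10.3 in Sham. TPM takes in the whole library, acinar messages included.

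Several rows cannot be read as 1 gene. The rows of Cox6b1, Uqcrb and Ndufv3 each join exons on 2 chromosomes, and Cox7a2l2, like Ndufs6, lies on another chromosome in the count table than in RefSeq. Another 17 members stayed under 5 CPM on average in both groups. Among them were Ndufa1, Ndufa12, Ndufb6, Ndufs5, Atp5pb and Atp5md, subunits of complexes that every cell needs, and their low counts leave these rows uncertain. The handling of reads with several matches is not stated in the labels.

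Few members were called between higher- and lower-glucose Px. Of 103 members tested, 6 were called higher and 0 lower (5.83%), where 4.88% of 15661 genes were called, 3.29% higher and 1.59% lower, so the count is near the background. They were Cox7b (0.83), Cox6c (0.61), Ndufa5 (0.60), Ndufaf4 (0.52), Ndufc2 (0.46) and Ndufs4 (0.34). Cox6c, a complex IV subunit, had 75.2, 79.6 and 90.1 CPM in higher-glucose Px, 44.2, 51.1 and 71.2 (lowest, median, highest) in lower-glucose Px, and 30.4, 33.4, 41.6, 41.7 and 42.6 in Sham. Each higher-glucose library lay above each lower-glucose one, and the adjusted p was 0.0198 (edgeR, Benjamini-Hochberg). The same held for 5 of the 6 genes called (all but Cox7b), which were selected on this comparison. Of the 103 members tested, 10 nuclear and 1 mitochondrially encoded lay above in this way, and 1 nuclear member lay below. Among all genes, 5.39% lay above and 4.46% below. Ndufa5, a complex I subunit, had 19.8, 20.2 and 20.7 CPM in higher-glucose Px, 11.6, 13.03 and 17.95 (lowest, median, highest) in lower-glucose Px, and 9.52, 10.8, 11.2, 11.7 and 12.5 in Sham.

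No mitochondrially encoded gene was called between the Px groups by edgeR, although 5 of 13 had an unadjusted p below 0.05 and DESeq2 called 4 and limma voom 2, all higher. The values of all 13 were positive (median 0.33), as were those of 80 of 90 nuclear members (median 0.21), beside −0.02 for all genes. With library totals alone and with endocrine scaling 0 members were called. Without higher-glucose Px replicate 19, 1 member was called, without higher-glucose replicate 13 or 15 or lower-glucose replicate 2, 3 were called each time, and without lower-glucose replicate 16, 13 were called. Of the 6 genes named above, 1 was still called without replicate 13, 2 without replicate 15, 1 without replicate 19, 3 without lower-glucose replicate 2 and 6 without lower-glucose replicate 16.

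Each Px group was also set against the same Sham libraries. In higher-glucose Px, 3 mitochondrially encoded genes were lower (median −0.26) and 64 of 90 nuclear members were higher and 1 lower (median 0.62), where 57.7% of genes were called, 32.2% higher and 25.5% lower. In lower-glucose Px, 9 mitochondrially encoded genes were lower (median −0.58) and 50 of 90 nuclear members were higher and 4 lower (median 0.39), where 63.5% of genes were called, 33.6% higher and 30% lower. Mt-nd5 stood at −0.86 in both, and Mt-nd3 at −0.22 in higher-glucose Px and −1.02 in lower-glucose Px. Both comparisons share their controls.

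Within the 7 lower-glucose Px libraries, a slope on log2 glucose was called by edgeR for 0 of 15695 genes and 0 of 103 members. At an unadjusted p below 0.05 there were 1432 genes (921 with a positive slope and 511 with a negative one) and 13 members. Of those, 1 nuclear member had a positive slope, and 11 nuclear members and 1 mitochondrially encoded gene had a negative one. Slopes were negative for 90 of the 103 members, called or not, beside 7726 of all 15695 genes. They were also negative for 30 of 32 acinar markers (median −1.08), so glucose and acinar content cannot be told apart in this slope. DESeq2 called 72 genes higher and 29 lower and 0 members, and limma voom called 0 genes. Over all 10 Px libraries, where the 3 higher-glucose libraries form a cluster of their own, edgeR called 123 genes with a positive slope and 17 with a negative one and 0 members. At an unadjusted p below 0.05, 5 mitochondrially encoded genes and 14 nuclear members then had a positive slope and 0 a negative one, whereas 12 of the 13 such members within lower-glucose Px had a negative one.

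Related pathway genes did not share 1 direction, and their counts are to be read against the 34.5% of all genes called higher and 30.2% called lower. Of 25 genes of mitochondrial transcription and RNA handling 3 rose (12%) and 8 fell (32%, near the background). Tfam (33.6 ± 4.75 CPM in Px, 55.8 ± 2.01 in Sham, log2 fold change −0.73 ± 0.09), the factor that packages and transcribes mitochondrial DNA, and Lrpprc (−0.45 ± 0.07), which stabilises mitochondrial messages, fell, though Lrpprc stood at 0.14 with endocrine scaling. Slirp (1.05 ± 0.19), the partner of Lrpprc, and Ssbp1 (0.68), which binds single-stranded mitochondrial DNA, rose.

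Of 14 regulators of biogenesis tested 3 rose (21.4%) and 5 fell (35.7%), and the 57.1% called in either direction compares with 64.7% of all genes. Ppard (1.65) and Esrra (1.06), nuclear receptors of oxidative metabolism, rose, as did the coactivator Ppargc1a (0.66). Esrrg (−0.85), another such receptor, and Gabpa (−0.40), a subunit of the GABP factor, fell, as did Nrf1 (−0.24).

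A list of 7 genes held electron carriers and the heme subunit of complex III, Cyc1, which the symbol rule left out of the members. Of these, 4 rose (57.1%) and 1 fell (14.3%). Cycs, cytochrome c (0.87), and Etfb, of the electron transfer flavoprotein (0.84), rose. Gpd2, the mitochondrial enzyme of the glycerol phosphate shuttle, fell to 33.4 ± 2.65 CPM in Px, against 69.1 ± 6.26 in Sham (−1.05 ± 0.07). Coenzyme Q synthesis had 2 of 13 higher (15.4%, Coq3 and Coq7) and 3 lower (23.1%, among them Coq2 and Coq10a). Assembly factors of complexes II to V had 4 of 31 higher (12.9%, Sco1 and Cox14 among them) and 6 lower (19.4%, Cox11 and Taco1 among them), both below the shares of all genes, with a median of 0.01.

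Of 4 nucleotide and phosphate carriers and uncoupling proteins tested 3 rose, among them the adenine nucleotide translocators Slc25a5 (0.59) and Slc25a4 (0.40), and Ucp2 stood at 0.04. Of 15 genes of the outer membrane, import and chaperones 5 rose (33.3%, near the background), including Hspe1 (1.05) and citrate synthase Cs (0.44), and 2 fell (13.3%), Hspa9 (−0.51) and Vdac1 (−0.23). Mitochondrial ribosomal proteins had 38 of 75 higher (50.7%) and 1 lower (Mrps18b, −0.29) and a median of 0.32, led by Mrps25 (1.17) and Mrpl54 (1.16). These directions are at TMM scaling, and the shifts of the median of all genes given above apply to them.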

How the data were processed

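Gene counts were those the authors deposited, as raw whole numbers per gene and library; per the submitters' processing notes, FastQC, Subread, featureCounts and limma were used. For the counting, the genome build, annotation, strand setting and treatment of reads with several matches were not given in the sources used here, and members that overlap or have near-identical copies are uncertain.

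The 15 libraries, of 12.2 to 33.4 M counts, were grouped by the surgery and glucose in their labels, with a boundary of 300 between Px groups. Genes were kept by filterByExpr (minimum count 10, minimum total 15), scaled by TMM and tested across all genes with edgeR 4.0.16 (glmQLFit and glmQLFTest, R 4.3.3) at a Benjamini-Hochberg adjusted p below 0.05. Px against Sham was fitted with 2 groups, and the glucose comparisons with 3. CPM, TPM, shares (Wilson 95% intervals, counting error only) and ratios were computed from the same counts. The fits were tested on counts simulated from the pooled profile of all libraries. Such counts lack the differences in cell content seen here, so they say nothing on the choice of scaling.

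Alternatives were DESeq2 1.42.0, limma 3.58.1 (voom), other scalings and filters, acinar and macrophage covariates, and leaving out each library. Promoters came from RefSeq GRCr8, and 11 nuclear members had no matching window. Genes picked for naming were all mitochondrially encoded members, a panel of core subunits and isoforms, and called genes of smallest p. For each complex the last were the 3 called nuclear members of smallest p in each direction (2 between Px groups). Of each other list they were up to 2 called genes in each direction. Not every gene picked in this way is described, and other genes were named after their values were seen. Members and lists were chosen with earlier results of these data known.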

Additional observations from a re-analysis of the deposited data

Results flagged for a closer look

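Of 150 groups of values checked, 9 had a library set apart from the rest of its group by a Dixon test, where chance gives about 1 in 20. Mt-nd5 was 1917 CPM in lower-glucose Px replicate 11, apart from both the other lower-glucose Px libraries (next highest 1490 CPM) and all other Px libraries (next highest 1528 CPM). Mt-cyb was 2241 CPM in lower-glucose Px replicate 16, where the next lower-glucose Px library had 1861 CPM. Among all Px libraries, higher-glucose Px replicate 19 stood apart for Mt-atp6 (4818 CPM, next 3645 CPM) and Cox4i2 (20.02 CPM, next 14.2 CPM), and higher-glucose Px replicate 15 for Uqcrq (73.1 CPM, next 41.4 CPM). Within lower-glucose Px, replicate 14 stood apart for Atp5s (6.11 CPM, next 5.27 CPM) and Ndufa5 (17.95 CPM, next 13.3 CPM), and replicate 8 for Ndufc2 (47.9 CPM, next 38.4 CPM).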

How the results depend on the processing

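No paired analysis was possible because the Px and Sham libraries share no replicate numbers. In Px against Sham, the mitochondrially encoded genes called lower numbered 8, and 4 with the acinar covariate, 0 with endocrine scaling, 13 with library totals and 0 with the macrophage covariate. Nuclear members called higher numbered 61, and 4 with the acinar covariate, 2 with library totals and 0 with the macrophage covariate. Leaving out each library gave 7 to 10 and 50 to 65. Between the Px groups, 6 members were called higher, and 14 by DESeq2, 0 with endocrine scaling, 0 with library totals, 13 with the macrophage covariate and 1 to 13 with a library left out. In higher-glucose Px against Sham, 3 mitochondrially encoded genes were lower, and 5 by DESeq2, 5 by voom, 5 with acinar genes taken out, 1 with the acinar covariate, 1 with endocrine scaling, 12 with library totals, 0 with the macrophage covariate and 1 to 4 with a library left out (1 without higher-glucose replicate 13). Nuclear members called higher there were 6 with the acinar covariate, 2 with library totals, 0 with the macrophage covariate and 57 to 66 with a library left out. In lower-glucose Px against Sham, mitochondrially encoded genes called lower were 0 with endocrine scaling, 0 with the macrophage covariate and 9 to 10 with a library left out. Nuclear members called higher there were 5 with the acinar covariate, 84 with endocrine scaling, 5 with library totals, 0 with the macrophage covariate and 42 to 59 with a library left out. The slope on glucose called 0 to 0 members with a library left out.

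With acinar genes out of the total, the mitochondrially encoded share was 2.94% in Px, and the nuclear share 0.695% in Px and 0.581% in Sham. With a library left out, the mitochondrially encoded share was 1.84% to 1.98% in Px and 4.02% to 4.29% in Sham, the nuclear share 0.430% to 0.463% in Px and 0.534% to 0.555% in Sham, and the ratio 4.15 to 4.31 in Px and 7.40 to 8.06 in Sham.

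Sign changes were followed only for a chosen set of named genes, so the lists below do not cover all members. With library totals, the median of the nuclear members was itself −0.20. The followed genes that changed sign in Px against Sham were as follows (log2 fold change). With the acinar covariate they were Mt-nd4l 0.12, Sdhc −0.37, Uqcrc1 −0.33, Uqcrc2 −0.23, Uqcrfs1 −0.62, Cox7b −0.28, Atp5f1b −0.29, Atp5mc2 −0.23, Atp5mc3 −0.25 and Ppargc1a −0.89. With endocrine scaling they were Mt-nd4 0.12, Mt-nd4l 0.22, Mt-nd6 0.46, Mt-co1 0.063, Mt-co2 0.33, Mt-co3 0.14, Mt-atp6 0.24, Mt-atp8 0.44, Ndufs1 0.22, Atp5f1a 0.52, Atp5s 0.0085, Lrpprc 0.14, Gabpa 0.18 and Nrf1 0.36. With library totals they were Ndufv1 −0.20, Sdha −0.093, Sdhb −0.14, Sdhc −0.52, Sdhd −0.16, Uqcrc1 −0.50, Uqcrc2 −0.57, Uqcrfs1 −0.61, Cox4i2 −0.059, Cox6a1 −0.081, Cox7b −0.23, Atp5f1b −0.27, Atp5mc1 −0.18, Atp5mc2 −0.45, Atp5mc3 −0.28, Ppargc1a −0.050 and Cs −0.18, and between the Px groups Ndufs4 −0.16 and Ndufc2 −0.041. With the macrophage covariate they were Mt-nd4 0.12, Mt-nd4l 0.057, Mt-co2 0.36, Mt-co3 0.31, Mt-atp6 0.22, Mt-atp8 0.36, Ndufs1 0.019, Ndufv1 −0.42, Sdhd −0.57, Uqcrc1 −0.37, Uqcrfs1 −0.069, Cox4i1 −0.10, Ndufa4l2 −0.24, Atp5mc2 −0.092, Atp5if1 −0.49, Esrra −0.23 and Cs −0.36, and with genes of at least 5 CPM Atp5f1a 0.020. The cause was not tested.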
